A study of Mus musculus with 8 samples.

Results

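The synaptic vesicle release machinery was described here through 47 genes, chosen by name: synapsins, SV2 proteins, SNARE proteins, active zone scaffolds, synaptotagmins and proteins of vesicle retrieval. All 47 were among the 15039 genes of the deposited expression table. The RNA came from prefrontal cortex (PFC) of wild-type male C57BL/6NCrljOri mice, which received bilateral injections of an AAV2/1 vector at 6 weeks of age and were dissected 4 weeks later. In 4 libraries the vector had expressed mouse Rnf146, a ubiquitin ligase, together with eGFP, and in the other 4 libraries it had expressed eGFP alone. Both groups thus carried a virus, and the human synapsin promoter (hsyn) of the vector restricts expression to neurons, while the RNA was extracted from all cells of the dissected tissue. In such bulk tissue, fewer cells of a type and less RNA per cell cannot be told apart. The authors state that the mice used for sequencing had been checked for Rnf146 overexpression and for social deficits.

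A presynaptic terminal stores transmitter in vesicles that carry synapsins, synaptophysin, SV2 proteins and synaptogyrins on their surface. At the active zone, scaffolds such as Bassoon, Piccolo, RIM and ELKS hold vesicles near calcium channels, and Munc13 proteins prime them by opening syntaxin for SNARE assembly. Calcium then binds a synaptotagmin, the SNARE proteins synaptobrevin, SNAP-25 and syntaxin pull the membranes together, NSF takes the spent complexes apart, and dynamin, amphiphysin and synaptojanin retrieve the membrane. Many of these proteins are encoded by families of related genes whose members are used by different types of neurons.

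The values are on a log2 scale between 7.86 and 18.8, and their 2 groups had been centred within the libraries that share a replicate number. In every gene, the sum of the eGFP and the Rnf146 value is equal for the 4 pairs, within 1.42e-13. A gene therefore holds a mean and 4 independent differences, given below as Rnf146 minus eGFP for pairs 1 to 4, and SDs are over these 4 pairs. Groups of a gene are free of overlap exactly when the 4 differences have the same sign. The transformation behind the values is not stated, so the differences are given on the log2 scale of the table and not as folds of RNA. Read numbers are not part of the table, and the depth of the libraries is unknown.

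*Rnf146* was higher in every Rnf146 library, by 2.82, 2.51, 2.66 and 2.58 in the 4 pairs, as the labels require. Reads of the vector and of the endogenous gene are counted together in this value. The whole table was fitted in limma, the replicate number entering as a block, and genes were called at a Benjamini-Hochberg adjusted p of 0.1 or less. Of all 15039 genes, 65 (0.432%) were called lower and 123 (0.818%) were called higher in Rnf146-overexpressing mice, 1.25% in either direction. Per pair, the median difference over the table ranged from -0.0020 to 0.0037.

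Of the 47 vesicle release genes, *Sv2c* was called higher and *Syt17* was called lower in Rnf146-overexpressing mice. Without the replicate block, 17 of the genes were called lower (against 10.4% of all genes) and 4 higher (against 11%), in a fit that counts the values of a pair as independent although the centring ties them. The mean difference was below 0 for 34 of the 47 genes, against 49.5% of all genes, and their median difference was -0.06. It was -0.07, -0.10, -0.04 and -0.01 in the 4 pairs. The groups did not overlap for 15 genes that were lower in all 4 pairs (31.9% of the 47, against 10.2% of all genes) and for 2 genes, *Sv2c* and *Vamp1*, that were higher in all 4 pairs (against 10.4% of all genes). An unadjusted p of 0.05 or less was reached by 18 of the 47 genes, 14 of them lower and 4 higher, against 12.4% of all genes. The genes were mostly well expressed: 39 of the 47 lay in the top 25% of genes by mean value, which is not corrected for transcript length. Among all genes in this top 25%, 51.6% had a mean below 0, 13.3% were lower and 10.5% were higher in all 4 pairs, and 15% had an unadjusted p of 0.05 or less. With the block, 0.878% of them were called lower and 0.798% higher, 1.68% together, and without it 14% and 10.8%.

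**Figure D1:**
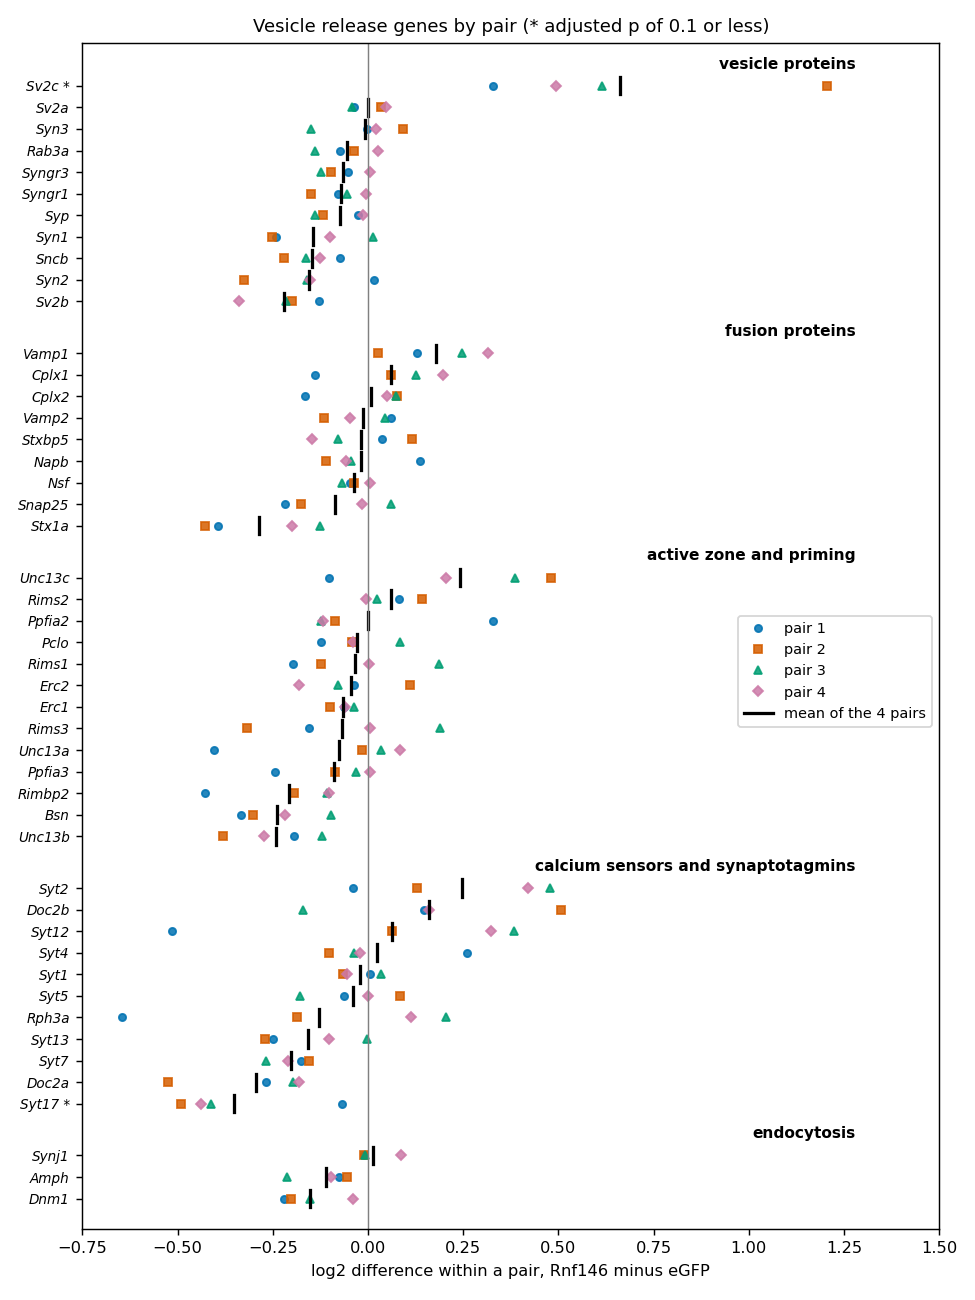
Difference of each of the 47 vesicle release genes within the 4 pairs (log2 scale, Rnf146 minus eGFP, horizontal axis), grouped by role; points are pairs, black bars are the means and asterisks mark genes called by limma. Most bars lie left of 0, with a median of -0.06, while *Sv2c* stands alone on the right at 0.66.

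**Figure D2:**
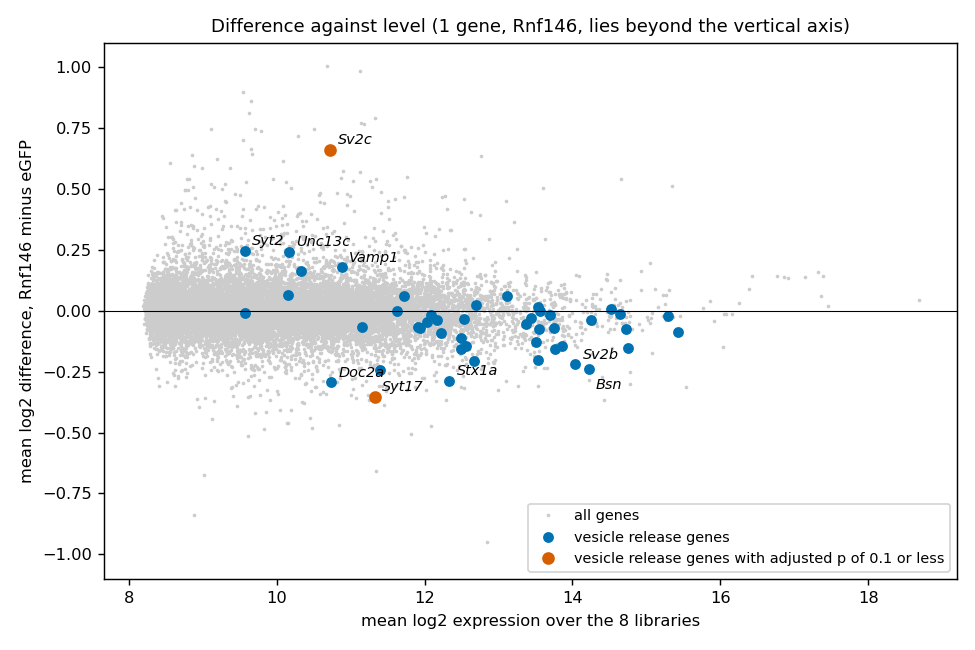
Mean difference (log2 scale, Rnf146 minus eGFP) against mean log2 expression over the 8 libraries for all 15039 genes (grey) and the 47 vesicle release genes (blue, or orange where called). *Sv2c* at 0.66 and *Syt17* at -0.35 lie at the edges of the cloud at their level, and the other vesicle release genes lie within it.

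The SV2 proteins are membrane glycoproteins of synaptic vesicles that bind synaptotagmin, and the 3 family members had means above, near and below 0. *Sv2c* (chromosome 13 of GRCm39, 96091102 to 96269085, minus strand) is the member known for strong expression in the basal ganglia. Its values were 10.56, 10.12, 10.42 and 10.48 in the eGFP libraries and 10.89, 11.33, 11.03 and 10.97 in the Rnf146 libraries. All Rnf146 values lay above all eGFP values, with the widest gap in pair 2. The differences were 0.33, 1.21, 0.62 and 0.49, which gave a mean of 0.66 ± 0.38 over 4 pairs. The 95% interval ran from 0.38 to 0.94, and limma gave an adjusted p of 0.0688. The adjusted p was 0.140 without pair 3, 0.245 without pair 4 and 0.109 with a robust variance estimate, so the call was lost in these fits.

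Marker lists of regions next to the cortex were also higher in Rnf146 libraries. The mean of the septum and basal forebrain list differed by 0.54, 0.67, 0.33 and 0.56, higher in all 4 pairs as *Sv2c* was, and all 8 of its genes in the table were called higher. The list of striatal projection neurons was higher in pairs 2 to 4, and none of its genes was called. All 12 striatal genes, among them *Drd1*, *Drd2* and *Ppp1r1b*, were in the table, and their mean differed by -0.12, 1.30, 0.68 and 0.30 in the 4 pairs. The mean level of the striatal list ran from 10.1 to 10.8 in the eGFP libraries and from 10.7 to 11.4 in the Rnf146 libraries. In pair 1 the striatal list was lower in the Rnf146 library while *Sv2c* was higher. The part of these lists in the difference of *Sv2c* was not tested.

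*Sv2b* (chromosome 7, 74761975 to 74959131, minus strand), which is abundant in cortical excitatory neurons, had lower values in the Rnf146 libraries. Its values were 14.10, 14.14, 14.15 and 14.21 in the eGFP libraries and 13.97, 13.94, 13.93 and 13.87 in the Rnf146 libraries. Here too the groups were apart, and pair 4 had the widest gap. The differences of -0.13, -0.20, -0.21 and -0.34 gave a mean of -0.22 ± 0.09 over 4 pairs, with an adjusted p of 0.128 by limma. *Sv2a*, the most widely expressed member of the family and the target of the drug levetiracetam, had values of 13.58, 13.54, 13.58 and 13.54 in the eGFP libraries and 13.54, 13.58, 13.54 and 13.59 in the Rnf146 libraries. These values overlapped, with a mean difference of 0.0003 and a 95% interval from -0.10 to 0.10. In every pair the order of the differences was the same, with *Sv2c* above *Sv2a* and *Sv2a* above *Sv2b*. The difference of *Sv2c* exceeded that of *Sv2b* by 0.88 ± 0.39 over 4 pairs, by 0.46 at least and 1.40 at most. The 30 bases before the annotated start of each of the 3 genes (GRCm39, GENCODE vM39, CG dinucleotides in capitals) are shown to set the start of the gene that rose beside those of its relatives:
Sv2a, chr3:96088437-96088466, plus strand: ctccCGctgctcactggCGCGggggaggga
Sv2b, chr7:74959132-74959161, minus strand: ataatcCGaggacacccccagtccaagacc
Sv2c, chr13:96269086-96269115, minus strand: tctCGctgcCGactagctcaaaggagtcac
The *Sv2c* stretch, although before the annotated start of *Sv2c*, overlaps 3 annotated exon entries, whose gene was not looked up. The 300 bases before the start held 5 CG dinucleotides in *Sv2a*, 9 in *Sv2b* and 27 in *Sv2c*. Other genes were not counted in this way, and a relation of these counts to the differences was not tested.

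**Figure D3:**
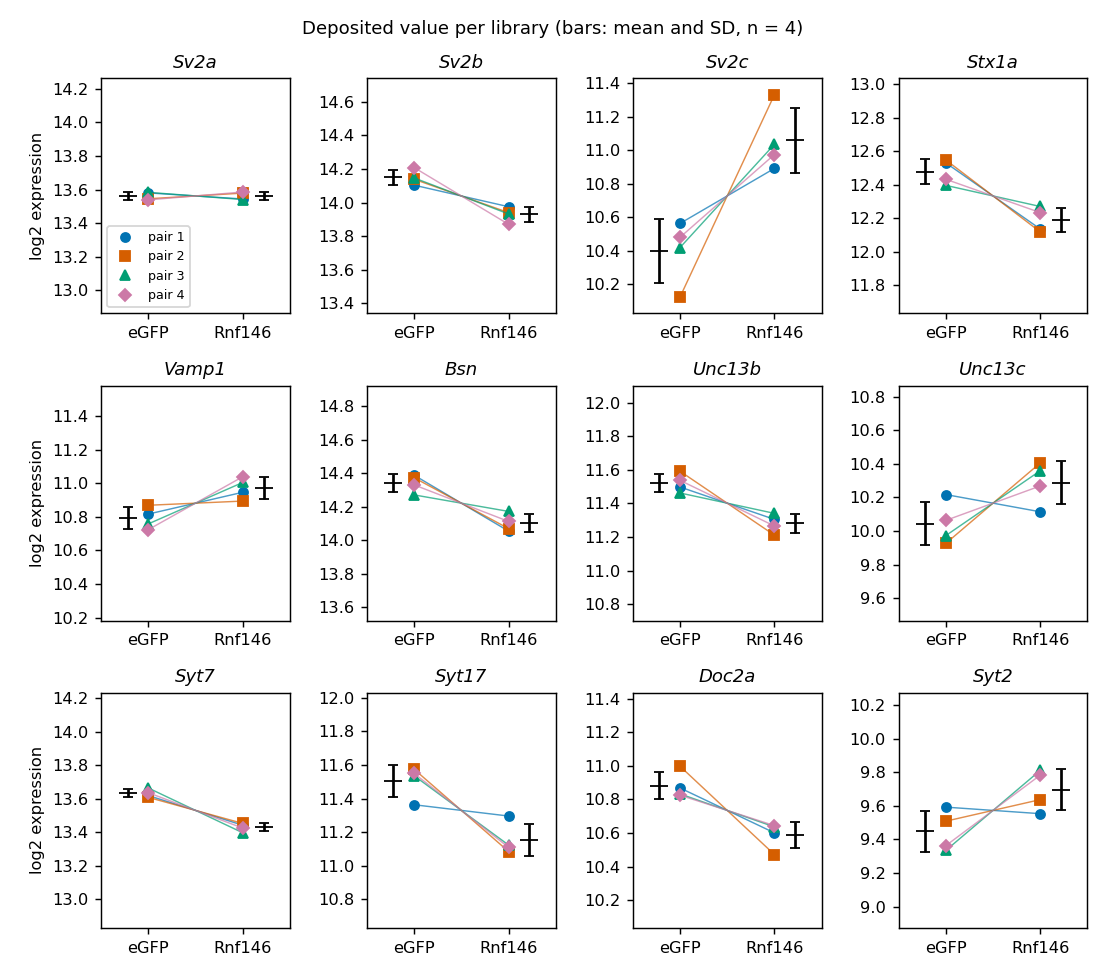
Deposited log2 expression of 12 vesicle release genes in the 4 eGFP and the 4 Rnf146 libraries; lines join the libraries of a pair, and bars give the mean and SD of each group (n = 4). The centring makes the SDs of both groups of a gene equal, and differences in level between pairs are not part of them. Every panel spans the same range of log2 units. The lines of *Sv2c* and *Vamp1* rise while those of *Sv2b*, *Stx1a*, *Bsn*, *Unc13b*, *Syt7*, *Syt17* and *Doc2a* slope down in all 4 pairs. The falling genes are among those picked for having the same sign in all 4 pairs, so their uniform slope follows from that choice.

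Synapsins tether vesicles in the reserve pool, and none of the 3 genes was called. *Syn1* differed by -0.24, -0.25, 0.01 and -0.10 and *Syn2* by 0.02, -0.33, -0.16 and -0.15, so that each was lower in 3 of the 4 pairs. Their means were -0.14 ± 0.13 and -0.16 ± 0.14 over 4 pairs, with adjusted p-values of 0.353 and 0.341 by limma. *Syn3* had a mean difference of -0.01 ± 0.10, smaller than the spread between the pairs. *Sncb*, which encodes the presynaptic protein β-synuclein, was lower in all 4 pairs, at -0.15 ± 0.06 with an adjusted p of 0.240. *Syp*, for the vesicle protein synaptophysin, and *Syngr1*, for synaptogyrin, were also lower in all 4 pairs, but at only -0.07 each, with adjusted p-values of 0.595 and 0.578. *Syngr3* and *Rab3a*, the vesicle GTPase that binds RIM, had mean differences of -0.07 and -0.06 and were higher in pair 4. Of the 11 genes for vesicle proteins, 9 had a mean below 0.

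The promoter of *Syn1* is a textbook target of the repressor REST, which silences neuronal genes in other cells through the RE1 element. A RefSeq promoter window of 300 bases, 250 before and 50 after the start, was found for 34 of the 47 genes. The left part of RE1, searched as TTCAGCACC on both strands, occurred in the windows of 3 of the 34 genes (8.82%), against 0.539% of the 11133 genes of the table that have a window. They were *Syn1*, *Unc13a* and *Ppfia3*, and the matches are shown in capitals with 10 bases on either side, read along the strand of the gene and placed on GRCm39 by exact match of the window:
Syn1, chrX:20787371-20787399, minus strand: cactgtcggaTTCAGCACCgcggtcagag
Unc13a, chr8:72124361-72124389, minus strand: ccgcgcccccGGTGCTGAAgcgacatggc
Ppfia3, chr7:45016471-45016499, minus strand: tcattggccaTTCAGCACCgtccgtcagt
In *Unc13a* the match lies on the opposite strand and after the RefSeq start, while those of *Syn1* and *Ppfia3* lie before it. The outermost GENCODE starts lie elsewhere, at 20787397 for *Syn1* and 45016901 for *Ppfia3*. Relative to these starts, the matches of *Syn1* and *Ppfia3* also lie after the start. *Syn1*, *Unc13a* and *Ppfia3* had mean differences of -0.14, -0.08 and -0.09, and none of them was called. The core sequence CTTTGAA, which the β-catenin partners TCF and LEF bind, occurred in 2 of the 34 windows, *Unc13a* and *Unc13b*, or 5.88%, against 4.18% of all genes with a window. The right part of RE1, GGACAG, occurred in 8 of the 34 (23.5%, against 26.8%), and the cyclic AMP response element, TGACGTCA, in the window of *Syn1* (2.94%, against 3.52%). A match is a run of letters and not evidence that the factor binds there. *Syn1* was a known REST target before the search, and the genes with a window were not limited to neuronal genes. The shares for the left part of RE1 are therefore not those of like sets of genes.

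Among the 9 genes for fusion proteins, *Stx1a* had the lowest mean difference. It encodes syntaxin-1A, the SNARE protein of the plasma membrane (chromosome 5, 135052139 to 135079963, plus strand). Its values were 12.53, 12.55, 12.40 and 12.43 in the eGFP libraries and 12.14, 12.12, 12.27 and 12.23 in the Rnf146 libraries. All Rnf146 values lay below all eGFP values, and the gaps of pairs 1 and 2 were wider than those of pairs 3 and 4. The differences were -0.39, -0.43, -0.13 and -0.20, averaging -0.29 ± 0.15 over 4 pairs, and the adjusted p by limma, 0.1003, lay just above the threshold. It was 0.0902 without pair 3, when *Stx1a* was called, and 0.372 without pair 2.

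The partner SNARE genes were not called either. *Snap25* differed by -0.22, -0.17, 0.06 and -0.01, with a mean of -0.09 ± 0.13 and a 95% interval from -0.23 to 0.06. *Vamp2*, for synaptobrevin-2, had a mean of -0.01 ± 0.08 over 4 pairs. *Vamp1* (chromosome 6, 125192340 to 125222927, plus strand), for synaptobrevin-1, was the highest of the group. Its values were 10.82, 10.87, 10.76 and 10.72 in the eGFP libraries and 10.95, 10.89, 11.01 and 11.04 in the Rnf146 libraries. Every Rnf146 value exceeded every eGFP value, although pair 2 differed by only 0.03, and the mean of 0.18 ± 0.13 over 4 pairs had an adjusted p of 0.248 by limma. The complexins clamp and then promote fusion of primed vesicles. *Cplx1* and *Cplx2* had mean differences of 0.06 ± 0.15 and 0.01 ± 0.12, and both were lower in pair 1 and higher in the other 3 pairs. *Nsf*, the ATPase that separates used SNARE complexes, *Napb*, its adaptor β-SNAP, and *Stxbp5*, for the syntaxin-binding inhibitor tomosyn, had means of -0.04, -0.02 and -0.02, with adjusted p-values of 0.802 to 0.932.

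Of the 13 genes of the active zone and of vesicle priming, 10 had a mean difference below 0 and none was called. *Unc13b* (chromosome 4, 43058940 to 43264885, plus strand) encodes the priming factor Munc13-2. Its values were 11.50, 11.59, 11.46 and 11.54 in the eGFP libraries and 11.30, 11.21, 11.34 and 11.27 in the Rnf146 libraries. The groups did not overlap, with a mean difference of -0.24 ± 0.11 over 4 pairs and an adjusted p of 0.113 by limma. *Bsn*, for the scaffold Bassoon (chromosome 9, 107973221 to 108067629, minus strand), had values of 14.39, 14.37, 14.27 and 14.33 in the eGFP libraries and 14.05, 14.07, 14.17 and 14.11 in the Rnf146 libraries. It was lower in all 4 pairs, with the smallest gap in pair 3, and its mean difference of -0.24 ± 0.11 over 4 pairs had an adjusted p of 0.123. *Rimbp2*, which links RIM to calcium channels (chromosome 5, 128834853 to 129030550, minus strand), had values of 12.88, 12.77, 12.72 and 12.72 against 12.46, 12.57, 12.62 and 12.62. It was lower in all 4 pairs too, at -0.43 in pair 1 and at -0.10 to -0.19 in the others, and the mean was -0.21 ± 0.15 with an adjusted p of 0.221.

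The other scaffold genes differed less. *Pclo*, for Piccolo, the large relative of Bassoon, had a mean difference of -0.03 ± 0.09, and *Erc1* and *Erc2*, for the ELKS proteins, had -0.06 ± 0.03 and -0.05 ± 0.12 over 4 pairs. *Erc1* was lower in all 4 pairs by a small amount, with an adjusted p of 0.579 by limma. The RIM genes *Rims1*, *Rims2* and *Rims3* had means of -0.03, 0.06 and -0.07, and *Rims1* and *Rims3* were lower in pairs 1 and 2 and higher in pairs 3 and 4. The liprin genes *Ppfia2* and *Ppfia3*, whose proteins recruit active zone components, had means of 0.0003 and -0.09. *Unc13a*, for Munc13-1, the main priming factor of cortical glutamatergic synapses, differed by -0.40, -0.02, 0.03 and 0.08.

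*Unc13c* (chromosome 9, 73386701 to 73876490, minus strand) encodes Munc13-3, best known from the cerebellum, and was the highest gene of this group. Its values were 10.22, 9.93, 9.97 and 10.06 in the eGFP libraries and 10.11, 10.41, 10.36 and 10.27 in the Rnf146 libraries. The groups overlapped, since the difference was -0.10 in pair 1, and it was 0.48, 0.39 and 0.21 in the other pairs. The mean was 0.24 ± 0.26 over 4 pairs, no larger than its SD. The adjusted p by limma was 0.313, and 0.0506 without pair 1.

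The calcium sensors and synaptotagmins, 11 genes, held the only gene called lower. *Syt17* (chromosome 7, 117979934 to 118055470, minus strand) encodes synaptotagmin-17, a family member without a transmembrane segment. Its values were 11.36, 11.57, 11.54 and 11.55 in the eGFP libraries and 11.30, 11.08, 11.12 and 11.11 in the Rnf146 libraries. All Rnf146 values lay below all eGFP values, and pair 1 had by far the smallest gap. The differences were -0.07, -0.49, -0.41 and -0.44, which gave a mean of -0.35 ± 0.19 over 4 pairs, and the adjusted p by limma was 0.0875. Without pair 1 the mean was -0.45, with an adjusted p of 0.0124. The call was lost without pair 2, 3 or 4, at 0.343, 0.193 and 0.368, and at 0.144 when differences were corrected for GC content and length of the transcripts.

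*Syt7*, the slow, high-affinity calcium sensor of facilitation and asynchronous release (chromosome 19, 10366033 to 10430544, plus strand), differed by -0.16 to -0.27, a narrow range. Its values were 13.62, 13.61, 13.66 and 13.64 in the eGFP libraries and 13.44, 13.45, 13.40 and 13.43 in the Rnf146 libraries. No Rnf146 value reached an eGFP value, with a mean difference of -0.20 ± 0.05 over 4 pairs and an adjusted p of 0.116 by limma. *Doc2a* (chromosome 7, 126446106 to 126451895, plus strand) encodes a soluble calcium sensor of spontaneous and asynchronous release. Its values of 10.87, 11.00, 10.83 and 10.83 in the eGFP libraries and 10.60, 10.47, 10.64 and 10.64 in the Rnf146 libraries did not overlap either. The mean difference was -0.29 ± 0.16 with an adjusted p of 0.113, and pair 2 had the widest gap. Its relative *Doc2b* had differences of 0.15, 0.51, -0.17 and 0.16, and the difference of *Doc2b* exceeded that of *Doc2a* in all 4 pairs, by 0.45 ± 0.42.

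*Syt1*, the main fast calcium sensor of cortical synapses, had a mean difference of -0.02 ± 0.05 over 4 pairs and a 95% interval from -0.13 to 0.09. *Syt2* (chromosome 1, 134574290 to 134690331, plus strand), the fast sensor of parvalbumin interneurons and hindbrain synapses, had the highest mean of the group. Its values were 9.59, 9.51, 9.33 and 9.36 in the eGFP libraries and 9.55, 9.64, 9.81 and 9.78 in the Rnf146 libraries. The groups overlapped, with pair 1 at -0.04, and the difference was 0.13, 0.48 and 0.42 in the other pairs. The mean of 0.25 ± 0.24 over 4 pairs had an adjusted p of 0.290 by limma. *Syt13*, an atypical synaptotagmin that does not bind calcium, was lower in all 4 pairs, at -0.16 ± 0.13, although pair 3 was near 0. *Syt4* and *Syt5* averaged 0.02 and -0.04, and their adjusted p by limma was 0.919 and 0.821.

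*Rph3a*, for the Rab3 effector rabphilin, differed by -0.65, -0.19, 0.20 and 0.11, and *Syt12*, for a synaptotagmin that does not bind calcium, by -0.52, 0.06, 0.38 and 0.32. Their means of -0.13 ± 0.38 and 0.06 ± 0.41 over 4 pairs were smaller than the spread between the pairs. With pair 1 left out, 421 genes of the table were called, against 188 with all pairs, and the vesicle release genes among them were 4 lower (*Sv2b*, *Unc13b*, *Syt7*, *Syt17*) and 3 higher (*Sv2c*, *Unc13c*, *Syt2*). In pair 1 the oligodendrocyte and the striatal marker lists were lower in the Rnf146 library, and in the other pairs they were higher.

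None of the 3 genes of membrane retrieval was called. *Dnm1* (chromosome 2, 32197854 to 32243376, minus strand), for dynamin-1, which cuts endocytic vesicles from the membrane, had values of 14.86, 14.85, 14.82 and 14.77 in the eGFP libraries and 14.64, 14.65, 14.67 and 14.73 in the Rnf146 libraries. All 4 pairs were lower, least in pair 4, and the mean of -0.15 ± 0.08 over 4 pairs had an adjusted p of 0.279 by limma. *Amph*, for amphiphysin, which brings dynamin to the neck of the vesicle, was lower in all 4 pairs as well, at -0.11 ± 0.07 with an adjusted p of 0.386. *Synj1*, for the phosphatase synaptojanin-1 (chromosome 16, 90732969 to 90808396, minus strand), had values of 13.55, 13.55, 13.54 and 13.50 against 13.53, 13.53, 13.54 and 13.58. These values overlapped, with a mean difference of 0.01 ± 0.05 and a 95% interval from -0.09 to 0.12.

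**Figure D4:**
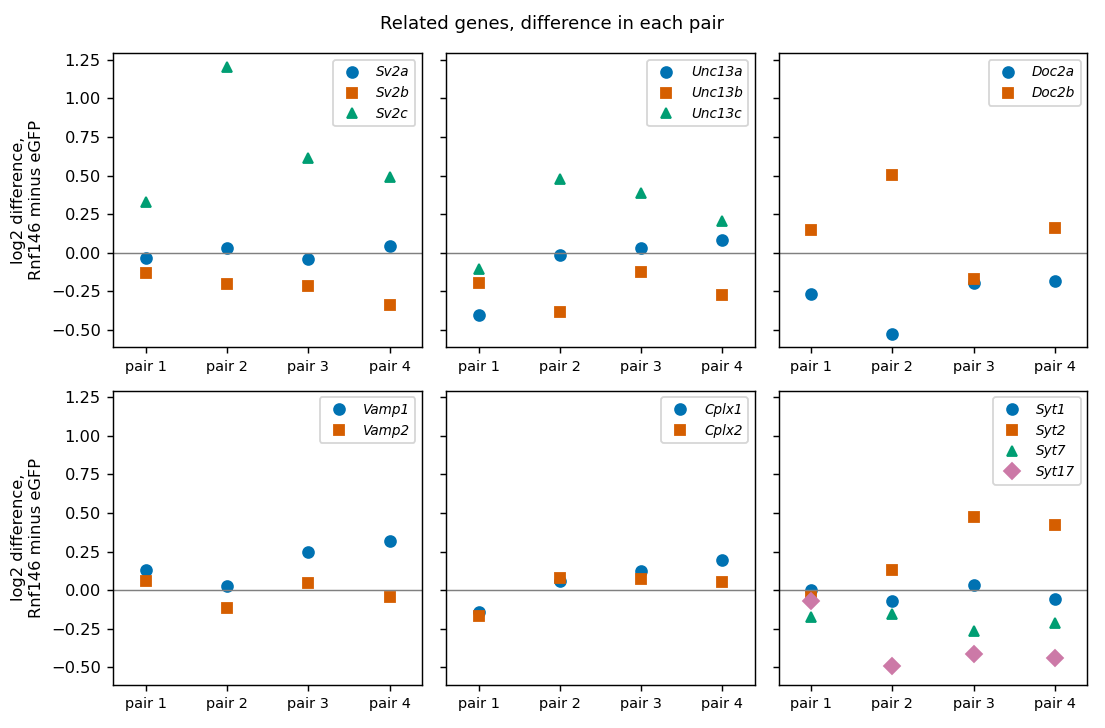
Difference within each pair (log2 scale, Rnf146 minus eGFP, vertical axis) for 6 families of related release genes; each point is a gene in a pair. *Sv2c*, *Unc13c* and *Doc2b* lie above *Sv2b*, *Unc13b* and *Doc2a* in all 4 pairs, whereas *Cplx1* and *Cplx2* lie close together.

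Contrasts between related genes were computed within each pair. The difference of *Unc13c* exceeded that of *Unc13b* by 0.48 ± 0.31 over 4 pairs and that of *Vamp1* exceeded that of *Vamp2* by 0.19 ± 0.12, both in all 4 pairs. *Syt2* exceeded *Syt7* by 0.45 ± 0.29 in all 4 pairs, and *Syt1* by 0.27 ± 0.24 in 3 of the 4 pairs. *Cplx1* exceeded *Cplx2* by 0.05 ± 0.07, within the spread between the pairs. *Unc13a* minus *Unc13b* (0.17 ± 0.27) and *Syn3* minus *Syn1* (0.14 ± 0.22) were above 0 in 3 of the 4 pairs. *Rims2* minus *Rims3* (0.13 ± 0.28) and *Erc2* minus *Erc1* (0.02 ± 0.14) were above 0 in 2 of the 4. *Sv2c* and *Sv2b*, like *Unc13c* and *Unc13b*, were the highest and lowest genes of their role groups, so a positive mean contrast follows from that rank. *Vamp1* and *Syt2* were the highest of their role groups, so the positive means of their contrasts follow from rank as well. The same holds for *Unc13a* minus *Unc13b*, since *Unc13b* was the lowest of its group. An exact two-sided sign-flip test over 4 pairs cannot give a p below 0.125, so these contrasts are given without a test.

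A list of 72 further genes of vesicle release, of which 71 were in the table, had a median difference of -0.04. Of the 71, 1 was called higher and 1 lower, or 1.41% each, against 0.818% and 0.432% of all genes. In all 4 pairs 13 were lower (18.3%, against 10.2% of all genes) and 7 were higher (9.86%, against 10.4%). The called genes were both vesicular transmitter transporters. *Slc32a1*, which loads GABA and glycine, had values of 11.11, 10.86, 11.06 and 10.97 in the eGFP libraries and 11.42, 11.68, 11.47 and 11.56 in the Rnf146 libraries. It was higher in all 4 pairs, by 0.53 ± 0.23 over 4 pairs, with an adjusted p of 0.0321 by limma. *Slc17a7*, the glutamate transporter of cortical excitatory neurons, had values of 14.99, 15.00, 14.85 and 14.90 against 14.58, 14.57, 14.71 and 14.67. It was lower in all 4 pairs, at -0.30 ± 0.14, with an adjusted p of 0.0922 that rose above the threshold without pair 1, 2 or 4, to 0.111, 0.372 and 0.322. The call of *Slc32a1* was lost without pair 4, at 0.230.

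The tissue expressed cortical markers: all 12 genes of the cortical excitatory list, among them *Slc17a7* and *Neurod2*, were in the table, with mean values from 9.05 to 16.0. Their mean was lower in the Rnf146 library of all 4 pairs, at -0.20, -0.24, -0.06 and -0.17, and it ran from 11.7 to 11.8 in the eGFP libraries and from 11.5 to 11.6 in the Rnf146 libraries. Of the 12 genes, 2 were called lower. Of 10 genes of neurons in general, such as *Rbfox3* and *Tubb3*, all were in the table, and their mean differed by -0.07, -0.02, 0.07 and 0.05. Of the 10 septum and basal forebrain genes the table held 8, without *Lhx8* and *Chat*, and the mean of these 8 ran from 9.19 to 9.36 in the eGFP libraries and from 9.69 to 9.86 in the Rnf146 libraries. The 10 inhibitory neuron genes, which include *Slc32a1* and of which 3 were called higher, differed by -0.01, 0.13, 0.17 and 0.16. The mean of the 10 oligodendrocyte genes, of which 0 were called by limma, differed by -0.16, 0.45, 0.86 and 0.51, and ran from 11.8 to 12.3 in the eGFP libraries and from 12.2 to 12.7 in the Rnf146 libraries. The 8 microglia genes, of which 1 was called lower, were lower on average in all 4 pairs, at -0.18, -0.28, -0.09 and -0.14. Of 8 ependymal genes 4 were in the table, with 1 called higher, and their mean was higher in all 4 pairs, by 0.12, 0.21, 0.14 and 0.22. The lists of astrocytes and endothelial cells had mean differences of -0.01 and -0.02. The part of these lists in the differences of the vesicle release genes was not tested.

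**Figure D5:**
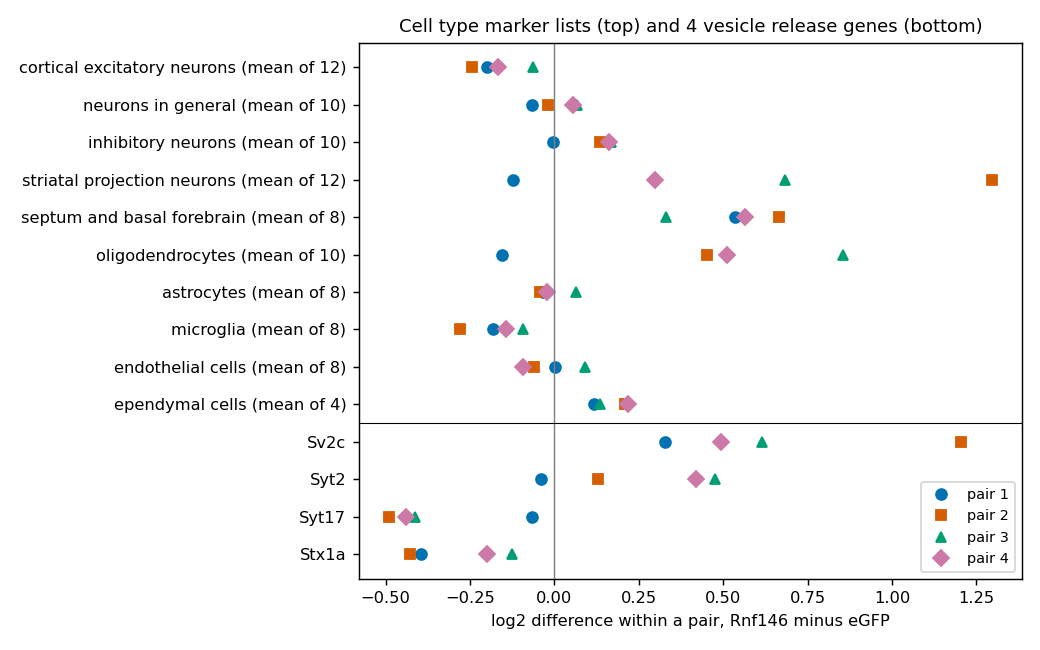
Difference within each pair (log2 scale, Rnf146 minus eGFP, horizontal axis) for the mean of 10 cell type marker lists, with the number of genes averaged, and for *Sv2c*, *Syt2*, *Syt17* and *Stx1a*; points are pairs. The striatal list and *Sv2c* both have their highest value in pair 2, at 1.30 and 1.21. The septum and basal forebrain list is above 0 and the cortical excitatory and microglia lists are below 0 in all 4 pairs.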

How the data were processed

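RNA sequencing covered 8 libraries, 4 per group, and the sample titles gave the group and replicate of each. The authors trimmed the reads with Cutadapt, quantified transcripts with Salmon 1.9.0 against GENCODE vM30 (GRCm39) and deposited 1 table of log2 values per gene symbol, whose normalization, transformation and centring within same-numbered pairs are not stated in the sources used here. DESeq2 is among the tools that the submitters' processing notes list. Libraries were made with a stranded mRNA kit. No per-sample column was left unused (0 columns). Nothing states that same-numbered mice shared a cage, a day or a batch. The pairing comes from the replicate numbers and from the centring itself, which makes the deviations within a pair mirror images, so that a check of whether same-numbered libraries deviate together is void. The fit has 3 residual degrees of freedom with the block and 6 without it. The labels number replicates without naming the mouse, so p-values measure the spread between these libraries, which may be technical.

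The model used limma 3.58.1 (lmFit, eBayes with trend, replicate number as a block; R 4.3.3), with Benjamini-Hochberg adjustment over 15039 genes and no filter or pseudocount. Alternatives were no block, median centring, quantile normalization, no genes of the lowest 25%, robust or untrended variances, array weights, GC and length correction, an adjusted p of 0.05 and leaving out each replicate. The procedure was also run on simulated data, with normal pair differences drawn independently for each gene. That setting lacks shifts shared between genes, and its outcome is not reported here. GC content and length were those of the longest GENCODE vM39 transcript, found for 14590 genes (97.0%) and all 47 vesicle release genes. Gene coordinates are from GENCODE vM39 on GRCm39, the build of the files. Promoter windows are from RefSeq (GRCm38.p6). *Syn3*, *Syngr3*, *Vamp2*, *Snap25*, *Rims2*, *Syt4*, *Syt5*, *Syt7*, *Syt12*, *Syt13*, *Syt17*, *Doc2a* and *Doc2b* were not matched. Python 3.11.15 was used for the remaining steps.

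Values in every library were given for called genes, for the lowest and highest gene of each of 5 role groups, and for genes with the same sign in all 4 pairs and an unadjusted p of 0.01 or less. *Sv2a* was added after its values were seen. The genes, the lists and the tests were chosen with earlier results of these data known. The motifs searched were chosen after the values had been seen.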

Additional observations from a re-analysis of the deposited data

Results flagged for a closer look

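In 3 of the 47 vesicle release genes, 1 pair difference stood far from the other 3 by Dixon's criterion for 4 values, which chance meets in about 1 of 20 groups. *Ppfia2* differed by 0.33 in pair 1 and by -0.12 to -0.09 in the other pairs. *Cplx2* differed by -0.17 in pair 1 and by 0.05 to 0.08 in the others. *Synj1* differed by 0.087 in pair 4 and by -0.011 to -0.0080 in the others.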

How the results depend on the processing

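Without the replicate block, in a fit that treats the tied values of a pair as independent, 3226 genes of the table were called against 188 with it. Of the vesicle release genes, 17 were then called lower and 4 higher, and 22 of the further 71 release genes were called. With array weights 355 genes were called in all, and 7 vesicle release genes lower. The number of vesicle release genes called lower was 2 after median centring and with a robust variance estimate, *Stx1a* and *Syt17* in both fits, and 2 with the correction for GC content and length, which were *Sv2b* (adjusted p of 0.0869 by limma) and *Unc13b* (0.0758), while *Syt17* was lost. The robust estimate left 0 called higher. With that GC and length correction, 1 of the further release genes was called. A stricter threshold of 0.05 on the adjusted p left 80 genes of the table, 1 further release gene and 0 vesicle release genes in either direction called by limma, although 18 of the 47 had an unadjusted p of 0.05 or less. Quantile normalization, omission of the lowest genes and an untrended variance left 1 called lower and 1 higher.

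Leaving out each replicate in turn gave 14 to 421 genes called in all (14 without pair 4, 421 without pair 1), 0 to 4 vesicle release genes called lower, 0 to 3 called higher, 0 to 3 further release genes called, and 2 to 7 vesicle release genes higher in all remaining pairs, a count that cannot fall when a pair is left out. The number lower in all pairs was 17 to 20 in these fits and 11 after quantile normalization. The share of all genes with the same direction in all pairs was not computed in these settings, so these counts cannot be set against the whole table. The median of the 47 genes stayed below 0 in all fits for which it was computed.

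The mean changed sign in some genes, none of them called. After quantile normalization *Napb* was at 0.0018 and *Pclo* at 0.0074. With array weights *Ppfia2* was at -0.039 and *Syt4* at -0.00093, and with the GC and length correction *Ppfia2* was at -0.033 and *Vamp2* at 0.0067. Over the fits without 1 replicate, the difference ran from -0.015 to 0.066 for *Cplx2*, from -0.070 to 0.012 for *Napb*, from -0.068 to 0.0013 for *Pclo*, from -0.11 to 0.041 for *Ppfia2*, from -0.11 to 0.022 for *Rims1*, from -0.16 to 0.013 for *Rims3*, from -0.24 to 0.044 for *Rph3a* and from -0.063 to 0.025 for *Stxbp5*. It ran from -0.015 to 0.015 for *Sv2a*, from -0.043 to 0.038 for *Syn3*, from -0.010 to 0.023 for *Synj1*, from -0.044 to 0.26 for *Syt12*, from -0.054 to 0.067 for *Syt4*, from -0.081 to 0.0069 for *Syt5*, from -0.13 to 0.033 for *Unc13a* and from -0.039 to 0.020 for *Vamp2*. The causes of these changes were not tested. With 4 pairs and no read numbers, the error of each value rests on the spread between pairs alone.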

Other observations

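Further release genes outside the 47, chosen after their values were seen, had differences of some size, though none was called. *Dnm3*, for dynamin-3, had differences of 0.30, 0.29, 0.16 and 0.09 with an adjusted p by limma of 0.145, while *Dnm1* was lower in all 4 pairs. *Ppfia4*, for a liprin, had differences of 0.41, 0.31, 0.09 and 0.18 with an adjusted p of 0.141. *Rims4*, for a short RIM protein, was lower in all 4 pairs, at -0.31, -0.39, -0.07 and -0.12, with an adjusted p of 0.193. *Otof*, for the calcium sensor otoferlin, differed by 0.04 in pair 1 and by -0.52, -0.48 and -0.42 in the other pairs, the same pairs in which *Syt17* was lowest, with an adjusted p of 0.166. It was 0.0124 without pair 1.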
